A study of Mus musculus with 38 samples.

Results

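Zar1, Zar1l, Ybx2, Cpeb1, Dazl, Ddx6, Lsm14b, Patl2, Eif4enif1 and Eif4e1b encode proteins that bind maternal mRNA or its cap, store it and regulate its translation. These 10 genes were taken by symbol from the 23125 in a table of normalized FPKM (fragments per kilobase of exon model, scaled to the mapped fragments of the library), and each symbol was found. The RNA came from oocytes and embryos of ICR mice, with females at least 6 weeks old, lysed in cycloheximide and separated on sucrose gradients. Of 10 gradient fractions, the 5 heavier were pooled as the polysome sample and the 5 lighter as the non-polysome sample. For each of 6 stages 3 libraries per fraction were analysed, described as biological triplicates, which gives 36 libraries of 38 in the labels. The zygote samples with the letter A, 1 in each fraction, were not analysed here. GV oocytes (prophase of meiosis I) were isolated with the phosphodiesterase inhibitor IBMX, and MII oocytes came from 12 h of culture without it. Zygotes were recovered from the oviducts of mated females, and embryos were then cultured to the two-cell stage. All females had been given the hormone PMSG, and those mated for embryos also hCG. Between oocytes and embryos, stage and hCG thus cannot be told apart. Metaphase embryos (zygote M and two-cell M) had been treated with 10 µM nocodazole, which depolymerizes microtubules, so M-phase and the drug cannot be told apart, and the methods leave it unclear whether the interphase two-cell embryos were treated too. No group carried a mutation or a transgene. The question was how much mRNA of each of these genes was in polysomes, the RNA with several ribosomes, and in lighter RNA as the oocyte became a two-cell embryo.

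The fully grown oocyte is transcriptionally silent and keeps much of its mRNA with short poly(A) tails in ribonucleoprotein particles. In such particles, proteins bound to the 3′UTR recruit a repression complex around the RNA helicase DDX6 and its partners LSM14, PATL and 4E-T, and an eIF4E-type protein occupies the cap. Release of the mRNA during maturation, through cytoplasmic polyadenylation, and its later destruction in the embryo bring about the oocyte-to-embryo transition.

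The smallest value in the table was 0.01 FPKM, and 43.2% of all values were at it. FPKM is relative to the rest of the RNA in the same library, so a difference between a polysome and a non-polysome library is a difference in share, not in molecules. In these bulk samples, fewer cells of a type and less RNA per cell cannot be told apart. Within each fraction the two-cell M libraries had the fewest genes above 0.1 FPKM, with 6261 to 7550 against 8383 to 10361 in polysomes and 5140 to 5889 against 6798 to 10525 outside them, and results that rest on them are given with that in view. The labels were checked against 12 oocyte markers (Gdf9, Bmp15, the Zp genes and others), all in the table. Their summed level above 0.01 per library was 5720 to 6810 FPKM in GV polysomes, 4190 to 5340 in MII and 1970 to 2260 in zygotes. In zygote M polysomes it was 542 to 801, which overlapped two-cell polysomes (587 to 652), and in two-cell M 56.6 to 245. For 10 two-cell activation genes the polysome sum was no higher in two-cell embryos (124 to 207) than in GV (176 to 323), and 10.2 to 146 in two-cell M. Outside polysomes it was 141 to 204 in GV and 448 to 759 in two-cell embryos. For 11 cumulus and granulosa markers the sum per library was between 0 and 69.1 FPKM, the highest being a two-cell non-polysome library, and Amh and Has2 were at 0.01 in all 3 GV libraries of both fractions. The part of any of these in the results below was not tested.

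The 3′ ends of the mRNAs are shown because CPEB1, one of the proteins described, acts through the cytoplasmic polyadenylation element (CPE) and the polyadenylation hexamer found there. In GENCODE M21 transcripts (build GRCm38, the build named in the submitters' processing notes), 1 transcript per gene was taken, and the last 100 bases of its 3′UTR were searched on the sense strand for the CPE spellings TTTTAT and TTTTAAT and for the hexamers AATAAA and ATTAAA. A hexamer was found in 8 of the 10 genes, all but Zar1l and Ybx2, beside 78.6% of 19367 protein-coding genes with a 3′UTR of that length. A CPE was found in these 100 bases in 1 of the 10, Ybx2, beside 17.9% of those genes. Over the whole 3′UTR the same spellings occurred 7 times in Ddx6, 6 in Dazl, 4 in Cpeb1, 2 in Lsm14b and 1 in Ybx2 and Eif4enif1. None occurred in Zar1, Zar1l, Patl2 or Eif4e1b. The whole 3′UTR was not counted for all genes. The Zar1l transcript has an annotated 3′UTR of 14 bases, so its window holds little. Sites of 30 bases, 5′ to 3′ on the strand of the gene with the matched letters in capitals, are given for the 3 genes with the largest stage effect in polysomes, for Dazl, and for the CPE of Ybx2:
Zar1: ataaagcctgtgAATAAAaggtattgcaaa
Eif4e1b: ggccctttctgtatctaAATAAAcacttct
Patl2: ggccttgtatttAATAAAagtctaatctgg
Dazl: cttgtatacacgAATAAAacctttttttca
Ybx2: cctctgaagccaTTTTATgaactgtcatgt
They lie at chr5:72577117-72577146 on the minus strand (Zar1), chr13:54788422-54788451 on the plus strand (Eif4e1b), chr2:122120115-122120144 on the minus strand (Patl2), chr17:50279400-50279429 on the minus strand (Dazl) and chr11:69941532-69941561 on the plus strand (Ybx2). The hexamer ended 15 bases before the annotated transcript end in Zar1, 7 in Eif4e1b, 19 in Patl2 and 15 in Dazl, while the CPE of Ybx2 ended 56 bases before it. A match is a description of the letters, not of a working site, and the ends used in oocytes may differ from the annotated ones.

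Differences between groups were tested with limma on log2 FPKM, in 1 fit of all 36 libraries over the 7967 genes whose geometric mean reached 0.1 FPKM, with Benjamini-Hochberg adjustment over those genes. A gene was called, and is said to have risen or fallen, when its adjusted p was under 0.05 and its change over 2-fold. Of the 10 genes, 9 entered the test and Ddx6 did not. All levels below are FPKM, changes are log2 fold changes with their SE, and n = 3 libraries a group. A library at 0.01 enters the log scale at that value, so the folds of genes with such libraries depend on the offset.

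**Figure D1:**
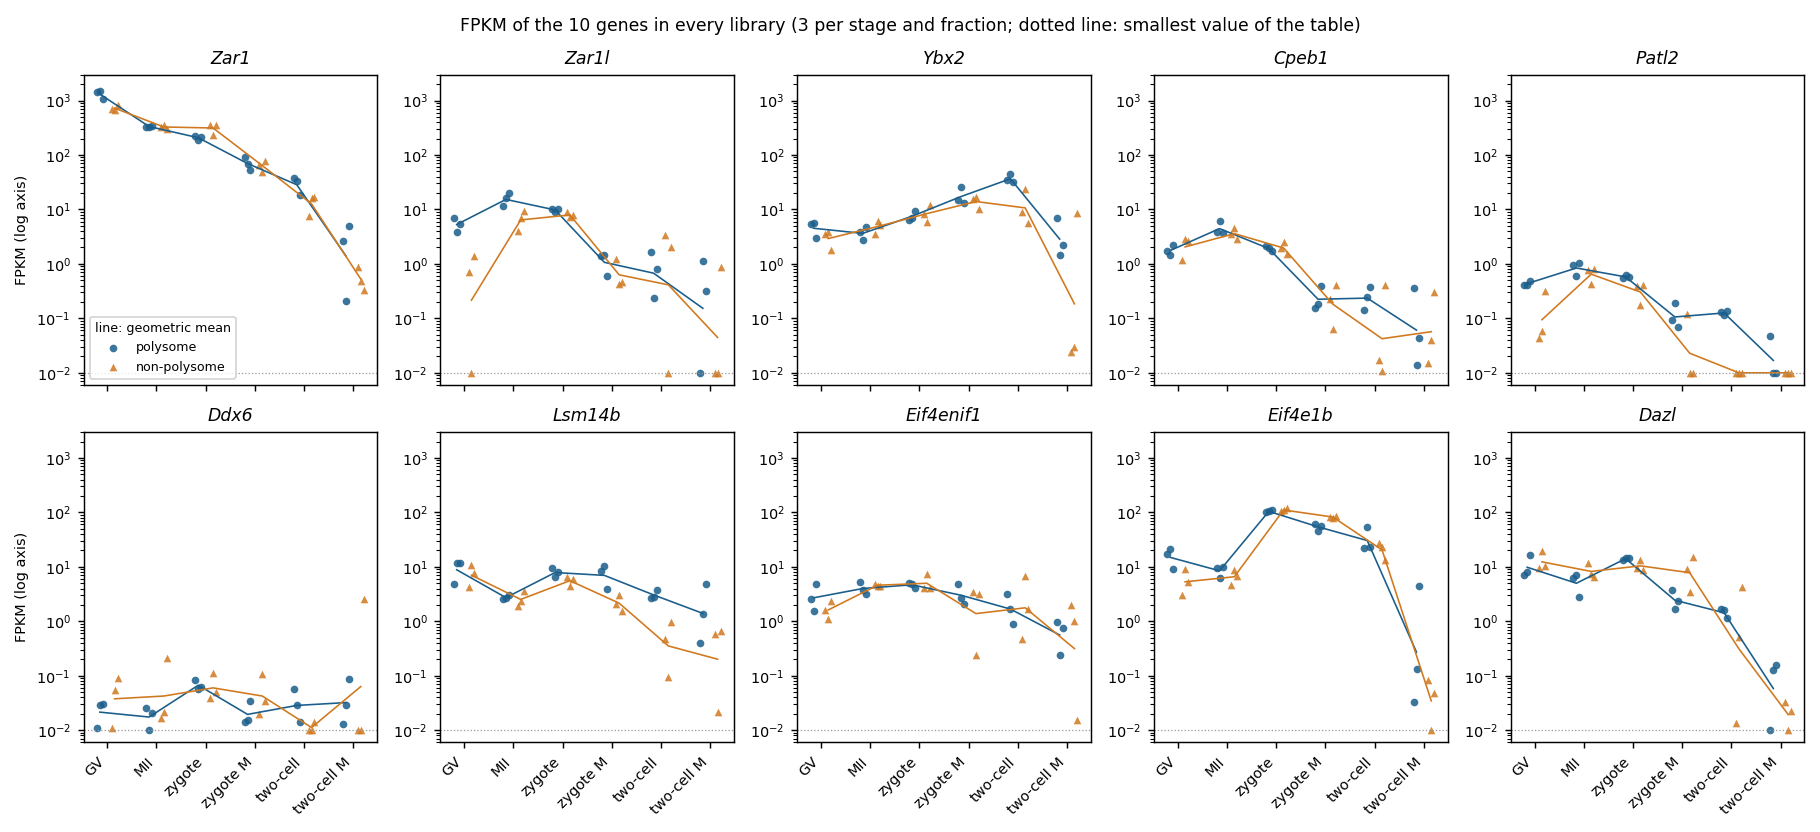
FPKM of each of the 10 genes (log axis) in every library by stage, with polysome libraries as circles, non-polysome libraries as triangles and lines through the geometric means of 3. Zar1 is highest in GV and lowest in two-cell M in both fractions, Eif4e1b is highest in zygotes, and Ybx2 polysome levels are highest in two-cell embryos, at 31.5 to 45.6 FPKM.

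Among the proteins that bind mRNA directly, ZAR1 is an oocyte zinc-finger protein needed for the accumulation of maternal mRNA, and its own mRNA was the most abundant of the 10 in GV oocytes. It was also the one with the clearest order of stages. In polysomes the GV libraries held 1087, 1407 and 1469.9 FPKM and the MII libraries 329.9, 332.6 and 337.3. The zygote libraries held 185.7, 213.4 and 224.8 and the zygote M libraries 53.6, 69.4 and 91.0. The two-cell libraries held 18.4, 33.5 and 37.4 and the two-cell M libraries 0.210, 2.63 and 4.91. Each stage lay below the one before it with no overlap between neighbours. In the non-polysome fraction the order was nearly the same, from 667, 700.9 and 811 FPKM in GV to 0.338, 0.486 and 0.894 in two-cell M, and there MII (299.1, 326 and 357.3) overlapped zygotes (235.8, 360.2 and 360.8). In polysomes Zar1 fell by 2.66 ± 0.63 in zygotes against GV (adjusted p = 0.00854), fell by 5.53 in two-cell embryos against GV (adjusted p = 3.68e-07) and fell by 2.26 in zygote M against MII (adjusted p = 0.0165). From interphase to M-phase at the two-cell stage it fell by 4.35 (20.4-fold, adjusted p = 6.29e-06), and by 7.91-fold without two-cell M replicate B and 38.2-fold without replicate C, with the call kept. The difference between MII and GV, -1.97 ± 0.63, had an adjusted p of 0.062 in the fit of all libraries and of 2.59e-05 in a fit without the two-cell M libraries. It was also called, as lower in MII, with 0.1 or 1 FPKM added, a mean of at least 1 FPKM, quantile normalization or only the 6 libraries compared. Of the 6 fits that left out 1 library, 0 called it. The fall in zygote M against MII was not called without MII replicate A or B or without zygote M replicate C, and that at the two-cell stage had an adjusted p of 0.0537 when only the 6 libraries compared were fitted.

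Zar1l, the paralog of Zar1, had its highest level in MII polysomes. The 3 MII libraries held 11.4, 15.9 and 19.6 FPKM, the GV libraries 3.84, 5.45 and 7.04 and the zygote libraries 9.14, 10.1 and 10.2, and these groups did not overlap. From zygote M on, every polysome library was between 0.01 and 1.65. In GV the non-polysome libraries held 0.01, 0.722 and 1.39, all below the polysome libraries of that stage, whereas the MII libraries held 4.05, 6.91 and 9.43. Only the fall in two-cell M against MII polysomes was called (-6.64 ± 1.84, adjusted p = 0.00364), at -4.67 without two-cell M replicate A and -8.08 without replicate B. The stage effect in polysomes (adjusted p = 0.0163) was not called without two-cell M replicate A (adjusted p = 0.0721). The non-polysome difference of MII from GV (4.89 ± 1.84) had an adjusted p of 0.0679, and its size depended on the library at 0.01, GV replicate B. Without that library the difference was 2.68 (adjusted p = 0.439), and without GV replicate C it was 6.24 (adjusted p = 0.0315). It was called, as higher in MII, with 0.1 or 1 FPKM added, quantile normalization or no two-cell M libraries.

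Ybx2 encodes MSY2, a Y-box protein that coats mRNA in germ cells and stabilizes it. Its polysome level was highest in two-cell embryos, where that of Zar1 was among the lowest. In polysomes the MII libraries held 2.70, 3.79 and 4.68 FPKM and the GV libraries 3.04, 5.47 and 5.52, which overlapped. Zygotes held 6.39, 6.98 and 9.42, zygote M 13.2, 14.98 and 26.1 and two-cell embryos 31.5, 34.1 and 45.6, and none of these 3 groups overlapped a neighbour. In two-cell M the libraries held 1.47, 2.23 and 7.09. The fall from two-cell to two-cell M polysomes was called (-3.68 ± 1.20, adjusted p = 0.0174), but not without two-cell M replicate B (adjusted p = 0.0724), and was -4.34 without replicate A. The difference of two-cell from GV polysomes, 3.02 ± 1.20, had an adjusted p of 0.0817 with all libraries and of 3.82e-05 without those of two-cell M. In the non-polysome fraction the level was 5.59, 9.16 and 23.7 in two-cell embryos and 10.3, 15.4 and 17.1 in zygote M, which overlapped. The stage effect was called there (adjusted p = 0.000384) and not in polysomes (adjusted p = 0.0518), where it was called with 0.1 or 1 FPKM added, a mean of at least 1 FPKM, quantile normalization, only the polysome libraries or no two-cell M libraries. The difference between the fractions in this effect was not tested. There the difference of two-cell M embryos from interphase two-cell embryos (-5.85 ± 1.20, adjusted p = 0.000318), a fall, came from libraries of 0.0241, 0.0303 and 8.64, of which the last overlapped the two-cell libraries, and it was not called with only the 6 libraries compared (adjusted p = 0.252). It was -4.38 without two-cell M replicate A, -4.55 without B and -8.63 without C.

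Cpeb1 encodes the CPE-binding protein, which first represses and then activates mRNAs in the maturing oocyte. Its polysome level was 3.74, 3.85 and 6.10 FPKM in MII, above 1.47, 1.70 and 2.20 in GV and 1.71, 1.95 and 2.10 in zygotes, which overlapped each other. In zygote M it was 0.156, 0.184 and 0.394, and the 3 later embryo groups overlapped. All oocyte and zygote polysome libraries were above all later ones, and the zygote and zygote M libraries were also apart in the non-polysome fraction, at 1.504, 1.96 and 2.55 against 0.0644, 0.225 and 0.416. Against MII it fell in zygote M polysomes by 4.31 ± 1.14 (19.8-fold, adjusted p = 0.0106) and in two-cell M polysomes it fell by 6.19 (adjusted p = 6.12e-05). The latter change was -7.49 without two-cell M replicate A and -5.13 without replicate B. The difference of zygote M from zygote was -3.09 ± 1.14 for polysomes (adjusted p = 0.124) and -3.43 ± 1.14 outside them (adjusted p = 0.0518). Without the two-cell M libraries these adjusted p values were 0.0281 and 0.0119. Both differences were also called, as lower in zygote M, with 0.1 or 1 FPKM added or quantile normalization. The polysome difference was called with only the 6 libraries compared too. Of the 6 fits that left out 1 library, 0 called the polysome difference and 1 the non-polysome difference. In two-cell non-polysome libraries Cpeb1 fell against GV (48.4-fold, adjusted p = 0.000465), and the call was lost with only the 6 libraries compared (adjusted p = 0.0859). The fold was 30.9, 24.4 and 151 without two-cell replicate A, B and C.

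Dazl encodes a germ-cell RNA-binding protein that promotes translation of mRNAs with its motif and acts with CPEB1 in the oocyte. The zygote polysome libraries lay close together at 13.4, 14.5 and 14.6 FPKM, within the range of GV (7.16, 8.14 and 16.3) and above MII (2.78, 6.33 and 7.08). In zygote M polysomes the level was 1.68, 2.33 and 3.70, whereas the non-polysome level was 3.45, 9.16 and 15.04, which overlapped zygotes. The polysome difference of zygote M from zygote (-2.54 ± 1.19, adjusted p = 0.284) was called only with 0.1 or 1 FPKM added or only the 6 libraries compared. The difference between the fractions in this change (-2.12 ± 1.69) was not called. In two-cell embryos the level was 1.13, 1.59 and 1.65 in polysomes and 0.0137, 0.515 and 4.33 outside them, so the non-polysome libraries differed widely. Dazl fell in two-cell M against two-cell polysomes (-4.62 ± 1.19, adjusted p = 0.00343), where the libraries were at 0.01, 0.127 and 0.156, and the change was -3.35 without two-cell M replicate A and -5.33 without replicate C. It also fell in two-cell against GV in the non-polysome fraction (-5.30 ± 1.19, adjusted p = 0.0013), at -3.05 without two-cell replicate A and -7.20 without replicate C. With only the 6 libraries compared these had adjusted p values of 0.0537 and 0.159, and the non-polysome fall in two-cell M was not called without two-cell replicate C (-2.11, adjusted p = 0.142) and was -6.26 without replicate A.

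The repression complex is formed around DDX6, and its mRNA was barely measured. Ddx6 (chromosome 9) was at or below 0.211 FPKM in every library but 1, a two-cell M non-polysome library at 2.53 FPKM whose 2 replicates were both at 0.01. In zygote polysomes, where all 3 libraries were above those of GV, it reached 0.0577, 0.0616 and 0.0849. With no minimum on the level it was called in none of the comparisons. Its geometric mean over the 36 libraries was 0.0323 FPKM, against 2.57 for Lsm14b and 2.00 for Eif4enif1, whose proteins bind DDX6.

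Lsm14b encodes an LSM14-family protein that is abundant in oocytes and binds DDX6 and 4E-T. Its polysome level was 4.89, 11.7 and 11.998 FPKM in GV, 2.56, 2.62 and 2.99 in MII, 6.41, 8.05 and 9.42 in zygotes and 3.92, 8.43 and 10.2 in zygote M. MII thus lay below both neighbouring stages without overlap, although the difference from GV was not called (-1.70 ± 0.97, adjusted p = 0.376; 0.0266 with only the 6 libraries compared). In zygotes, zygote M and two-cell embryos every polysome library was above every non-polysome library. The non-polysome libraries held 4.51, 5.99 and 6.39 in zygotes, 1.54, 2.09 and 3.09 in zygote M and 0.0965, 0.464 and 0.979 in two-cell embryos, against 2.66, 2.82 and 3.78 in two-cell polysomes. In the non-polysome fraction Lsm14b fell by 4.31 ± 0.97 in two-cell against GV (adjusted p = 0.00123), and the change was -3.38 without two-cell replicate B and -5.05 without replicate C. Within polysomes it was called in none of the 7 comparisons, and the stage effect there had an adjusted p of 0.0885. With 1 FPKM added, quantile normalization or only the libraries compared, the stage effect, MII against GV and zygote M against MII were called for it, and the stage effect also with 0.1 FPKM added.

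Patl2 encodes the oocyte form of the DDX6 partner PATL. Over the 36 libraries its geometric mean was 0.106 FPKM, just above the minimum of 0.1, with 10 libraries at 0.01. Its higher libraries, those of oocytes and zygotes, brought it over that minimum and are also the ones compared with later stages. The 4 called changes given here were also called with no minimum. Its level was low in all libraries, at most 1.03 FPKM, but ordered. In polysomes it was 0.403, 0.415 and 0.491 in GV, 0.603, 0.953 and 1.03 in MII and 0.543, 0.575 and 0.614 in zygotes. It was then 0.0682, 0.093 and 0.188 in zygote M and 0.113, 0.130 and 0.135 in two-cell embryos, and 2 of 3 two-cell M libraries were at 0.01. All oocyte and zygote polysome libraries were above all later ones. In the non-polysome fraction it was listed at 0.01 in all two-cell and two-cell M libraries, so no fold against them is given. Patl2 fell in zygote M against MII polysomes (-2.99 ± 0.83, adjusted p = 0.0157) and between zygote and zygote M non-polysome libraries (-3.73 ± 0.83, adjusted p = 0.00366), and it rose in MII against GV non-polysome libraries (2.78 ± 0.83, adjusted p = 0.0204). The first was called in 2 of 6 fits that left out 1 library, failing without MII replicate A or C or zygote M replicate A or C, and the last in 2 of 6, failing without GV replicate A or B or MII replicate A or C. The second was called in all 6, at -4.93 without zygote M replicate A and -3.13 without B or C, but not with quantile normalization or with only the 6 libraries compared (adjusted p = 0.567 and 0.106). The last was 3.66 without GV replicate C, and was not called with quantile normalization or with only the 6 libraries compared (adjusted p = 0.295 and 0.0986). Its fall in two-cell M against two-cell polysomes (-2.89 ± 0.83, adjusted p = 0.00773) was not called with 0.1 FPKM added, with quantile normalization or with only the 6 libraries compared (adjusted p = 0.0639, 0.797 and 0.0607), and it was -3.65 without two-cell M replicate A. With 1 FPKM added before the log, none of these 4 differences was over 2-fold.

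Eif4enif1 encodes 4E-T, which links eIF4E at the cap to the repression complex. It had the smallest stage effect of the 9 tested genes in polysomes (adjusted p = 0.2), with all 12 libraries from GV to zygote M between 1.57 and 5.28 FPKM and no stage apart from its neighbours. Two-cell libraries held 0.880, 1.67 and 3.22 and two-cell M libraries 0.240, 0.740 and 0.989. Only two-cell M against MII was called (-2.84 ± 1.20, adjusted p = 0.0479), a fall close to the median of -2.64 of all genes in that comparison. The call was lost whichever of the 6 libraries was left out, with adjusted p from 0.0505 to 0.171. The stage effect in the non-polysome fraction (adjusted p = 0.0403) was called in 11 of 18 such fits, and without two-cell M replicate C its adjusted p was 0.159.

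Eif4e1b encodes an oocyte relative of the cap-binding protein eIF4E that binds the cap weakly and associates with repressed mRNA. In both fractions its zygote libraries were above all libraries of every other stage. In polysomes GV libraries held 9.06, 17.0 and 21.4 FPKM, MII libraries 6.22, 9.71 and 10.0, and zygote libraries 100.5, 104 and 109. Outside polysomes the libraries held 3.09, 5.34 and 9.07 in GV, 4.65, 6.88 and 8.89 in MII and 103.9, 109 and 119.8 in zygotes. After the zygote the polysome level was 46.4, 56.0 and 61.5 in zygote M, 22.2, 23.4 and 54.0 in two-cell embryos and 0.0331, 0.134 and 4.47 in two-cell M. In polysomes the difference of zygotes from GV was 2.81 ± 0.98 (7.01-fold) with an adjusted p of 0.0985, and that of zygote M from MII was 2.68 ± 0.98 with an adjusted p of 0.0736. Neither was called in the fit of all libraries, although the groups did not overlap. Without the two-cell M libraries the adjusted p values were 2.17e-05 and 2.82e-05, and with only the 6 libraries compared 0.00324 and 0.000441. Both differences were also called with 0.1 or 1 FPKM added or quantile normalization. Of the 6 fits that left out 1 library, 0 called either. The later fall was called. The level fell by 6.81 ± 0.98 in two-cell M against two-cell polysomes (112-fold, adjusted p = 5.46e-06), and the non-polysome level fell by 9.21 (adjusted p = 1.87e-08). Single libraries moved the former several-fold, to 39.2-fold without two-cell M replicate A and 456-fold without replicate C, and the latter to -9.85 without replicate A and -8.32 without replicate B.

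**Figure D2:**
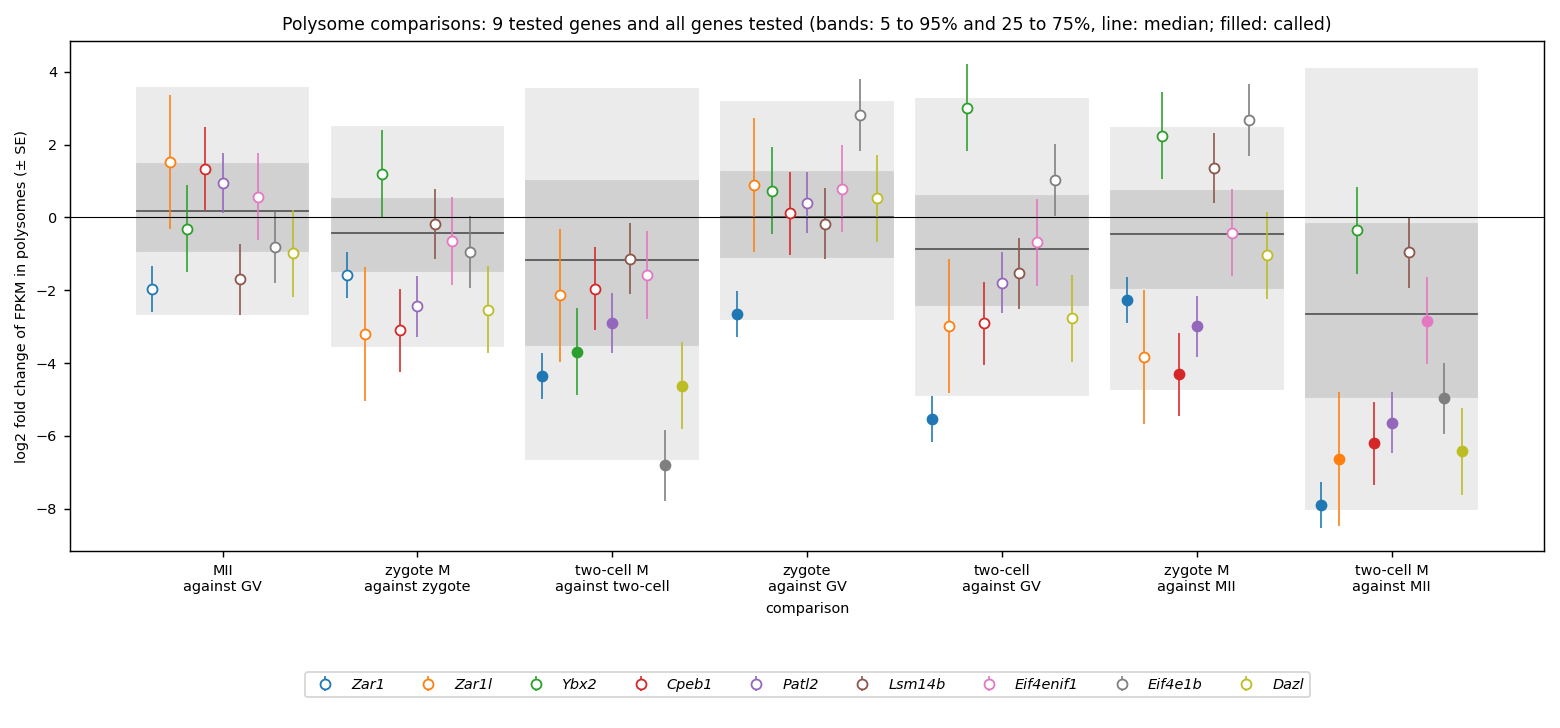
Log2 fold change (± SE) of the 9 tested genes in the 7 comparisons between polysome libraries, filled where called, over grey bands that hold the middle 90% and 50% of all 7967 genes tested and a line at their median. The 9 genes lie on both sides of 0 in zygotes against GV and below 0 in two-cell M, where the median of all genes is also below 0.

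By comparison, the stage effect over the 6 polysome groups was called for 6 of 9 genes (Zar1, Zar1l, Cpeb1, Patl2, Eif4e1b and Dazl), beside 62.9% of all genes tested. In the non-polysome fraction it was called for all 9, beside 78.3%. Without the two-cell M libraries, over the remaining 5 stages, these counts were 5 and 8, beside 41.3% and 65.4%. In polysomes the count was higher in other fits, at 8 with 0.1 FPKM added (69.5% of all genes), 9 with 1 FPKM added (68.4%), 8 with quantile normalization (71.2%) and 9 with only the polysome libraries (77.8%). With such shares among all genes, these counts say little about the 9.

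The 3 comparisons of M-phase with the interphase before it were made within polysomes. In MII against GV, 0 of 9 genes were called by limma (1, Zar1, at an unadjusted p under 0.05), beside 6.11% of all genes called and 1431 of the 7967 genes at an unadjusted p under 0.05. The median change was -0.31 for the 9 genes and 0.18 for all. In zygote M against zygote, 0 of 9 were called (4 at an unadjusted p under 0.05: Zar1, Cpeb1, Patl2 and Dazl), beside 5.75% called and 16.2% at an unadjusted p under 0.05. Here 8 of the 9 genes had a lower mean in M-phase, Ybx2 being the exception, with a median of -1.57 beside -0.43 for all genes. The 3 zygote M libraries did not overlap the 3 zygote libraries for 7 of the 9 genes, beside 56.5% of all genes. With only the 6 libraries compared, 6 of 9 were called (5 lower, and Ybx2 higher), beside 33.1% of all genes in that fit. In two-cell M against two-cell, 5 of 9 fell (Zar1, Ybx2, Patl2, Eif4e1b and Dazl), beside 36.3% of genes called and 28.1% called lower. The median of the 9 genes was -2.89 and that of all genes -1.17, and 8 of the 9 lay below that of all genes, Lsm14b (-1.13) being the exception. This count rests on the two-cell M libraries, and was 2 (Ybx2 and Eif4e1b) with only the 6 libraries compared, beside 20.9%.

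Between embryos and oocytes in interphase, 1 of 9 genes, Zar1, was called in zygotes against GV, beside 5.61% of genes. The median change of the 9 was 0.53 and that of all genes 0.01. In two-cell embryos against GV, 1 of 9 was called, again Zar1, beside 16.7%. This count depended on the fit, and was 5 with 0.1 FPKM added (beside 24.5% of all genes), 6 with 1 FPKM added (22.7%), 4 with quantile normalization (25.8%), 5 with only the 6 libraries compared (20.6%) and 3 without the two-cell M libraries (25.9%), with Ybx2 higher and Cpeb1 lower in each of these. The groups did not overlap for 8 of the 9 genes, all but Eif4enif1, beside 44.6% of all genes. Ybx2 and Eif4e1b were the 2 of these 8 with higher levels in two-cell embryos. These comparisons share the GV libraries. Between M-phases, 3 of 9 genes fell in zygote M against MII (Zar1, Cpeb1 and Patl2), beside 12.4% of genes called and 8.95% called lower. In two-cell M against MII, 7 of 9 fell (all but Ybx2 and Lsm14b), beside 53.0% called and 45.2% called lower, with a median of -5.64 against -2.64 for all genes. These 2 comparisons share the MII libraries. In the latter, Patl2 lost the call with 1 FPKM added (6 called, beside 41.8% of all genes) and Eif4e1b with only the 6 libraries compared (6 called, beside 49.0%). Eif4enif1 lost it whichever of the 6 libraries was left out. The count for zygote M against MII was 5 without the two-cell M libraries, with Ybx2 and Eif4e1b higher and Zar1, Cpeb1 and Patl2 lower, beside 19.5% of all genes in that fit.

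In the non-polysome fraction, 1 of 9 genes, Patl2, rose in MII against GV, beside 16.6% of genes called. In zygote M against zygote 2 of 9 fell (Zar1 and Patl2), beside 10.4%. The Zar1 call was lost without zygote replicate B or D or zygote M replicate B (adjusted p up to 0.0719). In two-cell M against two-cell 4 of 9 fell (Zar1, Ybx2, Eif4e1b and Dazl), beside 36.1% called and 28.0% called lower. In two-cell embryos against GV 5 of 9 fell (Zar1, Cpeb1, Patl2, Lsm14b and Dazl), beside 29.7% called and 19.6% called lower. Patl2, set against 3 libraries at 0.01, lost this call with 0.1 or 1 FPKM added, quantile normalization or only the libraries compared. Without the two-cell M libraries 7 were called (38.3% of all genes), with Ybx2 and Eif4e1b higher, and Eif4e1b was also called higher with 0.1 or 1 FPKM added (5 and 6 called, 31.8% and 26.5%). With only the libraries compared, each of the 2 comparisons of two-cell embryos, with two-cell M and with GV, had 2 of 9 called (Zar1 and Eif4e1b, and Zar1 and Lsm14b), beside 875 and 986 of the 7967 genes.

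**Figure D3:**
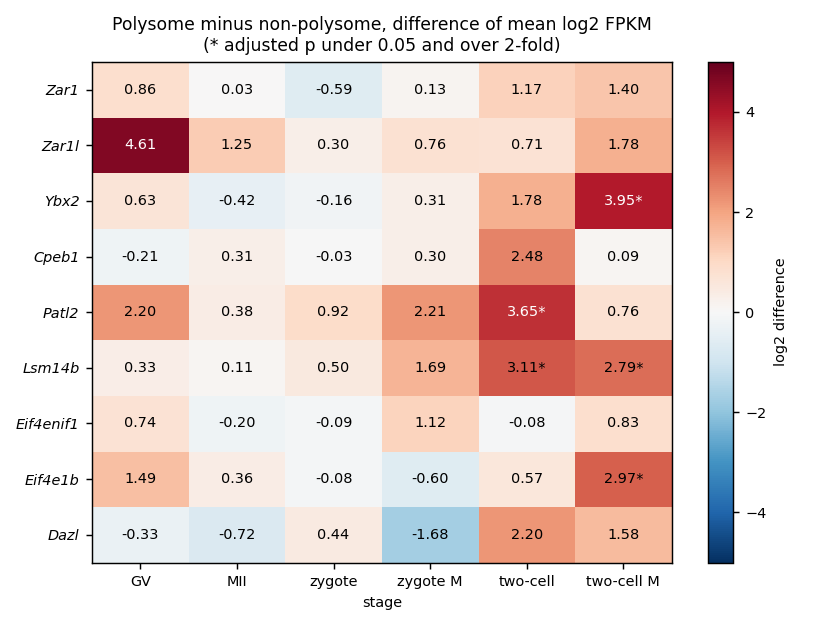
Difference of the mean log2 FPKM of polysome and non-polysome libraries at each stage for the 9 tested genes, red where higher in polysomes, with an asterisk where called. Called differences are found in two-cell and two-cell M embryos only, for Patl2, Lsm14b, Ybx2 and Eif4e1b, and Patl2 in two-cell embryos is set against libraries at the smallest value of the table.

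The same stage was then compared between fractions. In GV 0 of 9 genes were called (2 at an unadjusted p under 0.05, Zar1l and Patl2), beside 4.96% of all genes called and 19.7% at an unadjusted p under 0.05. In MII 0 of 9 were called (0 at an unadjusted p under 0.05), beside 0.753% and 6.14%. In zygotes 0 of 9 were called (0 at an unadjusted p under 0.05), beside 1.38% and 7.38%, and in zygote M 0 of 9 (1, Patl2), beside 1.92% and 12.3%. Zar1l in GV had the largest difference of these 4 stages, 4.61 ± 1.84, and was called when 0.1 FPKM was added before the log (adjusted p = 0.0384), with 1 FPKM added (0.00238) and with quantile normalization (0.0487). It was called in 0 of 6 fits that left out 1 library, at 2.40 (adjusted p = 0.7) without the non-polysome replicate B at 0.01 and at 5.96 (adjusted p = 0.0666) without replicate C. Zar1 had all GV polysome libraries above all GV non-polysome libraries and the reverse in zygotes, at differences of 0.86 and -0.59 (adjusted p = 0.48 and 1). In two-cell embryos 2 of 9 genes were higher in polysomes (Patl2 and Lsm14b), beside 16.1% called and 9.69% called higher. For Patl2, set against 3 libraries listed at 0.01, the call was lost with 0.1 FPKM added, with 1 FPKM added and with quantile normalization (adjusted p = 0.0532, 0.342 and 0.177). For Lsm14b the difference was 3.11 ± 0.97 (8.65-fold, adjusted p = 0.0273). It was not called without polysome replicate A, B or C or without non-polysome replicate B (adjusted p up to 0.162), nor with only the 6 libraries compared. The difference was 2.18 without non-polysome replicate B and 3.85 without replicate C. In two-cell M embryos 3 of 9 were higher in polysomes (Ybx2, Lsm14b and Eif4e1b), beside 14.8% called and 9.70% called higher. The libraries of the 2 fractions overlapped for all 3 of these genes. Ybx2 lost the call without polysome replicate A or non-polysome replicate A or B, Lsm14b without polysome replicate B or C or non-polysome replicate B, and Eif4e1b without polysome replicate C or non-polysome replicate B. Leaving out 1 library moved the difference from 3.95 to between 2.48 and 6.72 for Ybx2 (without non-polysome replicate A and C), from 2.79 to between 1.17 and 3.68 for Lsm14b (without non-polysome replicate B and polysome replicate A) and from 2.97 to between 0.95 and 4.49 for Eif4e1b (without polysome replicate C and A). None of the 3 was called with only the 6 libraries compared, beside 0.238% of all genes.

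Whether a change in polysomes differed from that in the non-polysome fraction was tested as an interaction. Of the 9 genes, 0 were called by limma for MII against GV (beside 0.163% of genes), for zygote M against zygote (0.289%), for two-cell M against two-cell (5.75%) and for two-cell against GV (2.26%). At an unadjusted p under 0.05 the counts were 0, 0, 1 (Patl2) and 0, beside 7.37%, 7.52%, 19.2% and 15.3% of all genes. For two-cell M against two-cell, 1 gene was called in 2 of the 12 fits that left out 1 library. With 1 FPKM added, Zar1l was called for two-cell against GV, beside 6.10% of all genes in that fit. In the fit of all libraries without added FPKM, no difference between the fractions in how these genes changed was detected. This does not show that they changed alike.

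Other genes of mRNA storage were counted in the same tests. Of 25 listed messenger ribonucleoprotein and P-body partners, 15 were tested, and the counts called within polysomes were 0 in MII against GV, 1 in zygote M against zygote, 5 in two-cell M against two-cell (all lower), 0 in zygotes against GV, 1 in two-cell against GV, 1 in zygote M against MII and 9 in two-cell M against MII (8 lower). Over all genes the shares called in these comparisons were, in the same order, 6.11%, 5.75%, 36.3%, 5.61%, 16.7%, 12.4% and 53.0%, so the counts of 5 and 9 of 15 were near the background. Stau1, whose protein binds double-stranded mRNA, was called in 4 of the 7. Its polysome mean was 7.99 ± 0.89 FPKM (SD, n = 3) in zygotes and 1.04 ± 0.45 in zygote M, a fall of 3.03 ± 0.89 on the log2 scale (adjusted p = 0.0402). In GV its polysome level was 4.74 ± 4.09, so the GV libraries varied widely. The decapping cofactors Edc4 and Dcp1a were called in 2 comparisons each, as were Elavl2, Rbpms2 and Ybx3, and Edc4 fell by 3.88 ± 1.33 in two-cell against GV (adjusted p = 0.0439).

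Of 17 listed cytoplasmic polyadenylation genes, 16 were in the table and 12 were tested. Called within polysomes were 0 in MII against GV, 0 in zygote M against zygote, 2 in two-cell M against two-cell, 0 in zygotes against GV, 4 in two-cell against GV (all lower), 1 in zygote M against MII and 6 in two-cell M against MII (5 lower). The shares over all genes were those just given, with 12.3% called lower in two-cell against GV and 53.0% called in two-cell M against MII, near the 6 of 12. Among the 4 listed subunits of the cleavage and polyadenylation specificity factor, the complex that recognizes the hexamer and cuts the pre-mRNA, Cpsf1, Cpsf2 and Cpsf3 fell in two-cell against GV polysomes (-6.95 ± 2.14, -5.38 ± 1.18 and -5.53 ± 1.39, adjusted p = 0.0245, 0.00186 and 0.00623). Their two-cell polysome means were 0.497 ± 0.831, 0.0439 ± 0.0432 and 0.0127 ± 0.00246 FPKM (SD). The libraries of Cpsf1 thus varied widely, and those of Cpsf2 and Cpsf3 were low, so these folds depend on the offset. The other subunit, Cpsf4, named after its values were seen, had a difference of 4.27 ± 1.73 in two-cell against GV (adjusted p = 0.0875) and was called in none of the 7 polysome comparisons. Pabpc1l and Papd4 were called in 2 of them, as were Cpsf1 and Cpsf2. Of 9 cap-binding and 4E-BP genes, 7 were tested, and 2 were called between the two-cell phases and 4 in two-cell M against MII, beside 36.3% and 53.0% of all genes, with 0 in the other 5 comparisons. Eif4e3 fell in both (-2.46 ± 0.92 and -4.09 ± 0.92, adjusted p = 0.0369 and 0.000561). Eif4e2 rose by 3.43 ± 1.23 in the former (adjusted p = 0.0307), and Eif4ebp1, whose protein binds eIF4E and represses translation, rose by 4.07 ± 1.11 in the latter (adjusted p = 0.00325). None of the 7, the canonical Eif4e included, was called in zygotes against GV.

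The 9 tested genes varied in how alike their levels ran over the stages, which was described and not tested. Over the 12 means of log2 FPKM (6 stages in 2 fractions, with each pair of genes read from the same libraries), the highest Pearson r among the 9 tested genes were 0.95 for Zar1 and Dazl, 0.93 for Cpeb1 and Patl2 and 0.92 for Zar1l and Eif4enif1. The lowest were 0.10 for Ybx2 and Cpeb1 and 0.26 for Ybx2 and Patl2. Two-cell M had the lowest mean FPKM, or was tied for it, for all 9 in both fractions, and the points share this stage. The 3 genes with the largest stage effect in polysomes were also matched with all tested protein-coding genes. Zar1 was most like Ankib1 (r = 0.98), Slc25a26 (0.98) and Gdf9 (0.98), Eif4e1b most like Ywhag (0.99), Ski (0.98) and Itgb3 (0.97), and Patl2 most like Hp (0.98), Ube4a (0.98) and Adgrg1 (0.98). These are descriptions of likeness over 12 means.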

How the data were processed

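Oocytes and embryos were fractionated and sequenced with SMART-Seq v4 libraries. The submitters' processing notes name Trim Galore 0.4.1, STAR 2.5.3a, Partek and the build GRCm38, and the authors deposited normalized FPKM over RefSeq genes. The normalization is not given in more detail in the sources used here, and as no counts were used the depth is unknown and no counting error is given. Columns were matched to samples by name. For 2 of 38 samples, both zygote samples with the letter A, no column was matched, and these were not analysed here. A model of 12 group means was fitted to log2 FPKM without a pseudocount (limma 3.58.1, R 4.3.3), with a variance trend and two-sided tests, and the code was tested on simulated data. The thresholds are those of the study (adjusted p of 0.05 and 2-fold). Sequences were read from GENCODE in Python 3.11.15 with pandas 2.3.3, and figures were drawn with matplotlib 3.10.9 and numpy 2.4.6.

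The genes and lists were chosen with earlier results of these data known. Named were all 10 genes, up to 3 genes of each list called in the most polysome comparisons (ties in alphabetical order), and the 3 genes most like each of the 3 with the largest F. Genes tied with these, Cpsf4 and Eif4e were named after their values were seen. Alternatives were 0.1 or 1 FPKM added, dropping the minimum, requiring a mean of 1 FPKM, quantile normalization, fits of the compared libraries only, a replicate block, leaving out each library and, added after seeing the data, leaving out the two-cell M libraries. For 8 sperm markers (5 in the table) the sum per library was 0.00193 to 8.55 FPKM, and for 10 two-cell activation genes 10.2 to 759. A further sequence is not reported here.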

Additional observations from a re-analysis of the deposited data

How the results depend on the processing

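Counts are of the 9 tested genes called in each comparison, with the share of all genes called in the same fit in parentheses except where 1 library was left out. No called change turned its direction under any alternative. With 0.1 FPKM added the counts within polysomes were 1 in MII against GV (13.4%), 3 in zygote M against zygote (8.84%), 2 in zygote against GV (11.1%), 5 in two-cell against GV (24.5%) and 5 in zygote M against MII (20.6%). In the same fit they were 2 in non-polysome MII against GV (23.5%) and 4 in non-polysome zygote M against zygote (11.6%), and between fractions 2 in GV (8.17%), 1 in two-cell embryos (18.4%) and 0 in two-cell M (15.1%). With 1 FPKM added they were, in polysomes, 3 in MII against GV (20.1%), 4 in zygote M against zygote (11.3%), 3 in two-cell M against two-cell (26.9%), 2 in zygote against GV (16.4%), 6 in two-cell against GV (22.7%) and 6 in zygote M against MII (22.3%), then 3 in non-polysome MII against GV (25.1%), 2 between fractions in GV (955 of 7967 genes), 0 in two-cell M (14.1%) and 1 for the interaction of two-cell against GV (6.10%). With no minimum, 1 was called between fractions in two-cell M (6.27%). With a mean of at least 1 FPKM, which left out Patl2, the counts were 1 in polysome MII against GV (8.60%), 0 in non-polysome MII against GV (19.6%), 1 in non-polysome zygote M against zygote (10.8%) and 1 between fractions in two-cell (17.5%).

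With quantile normalization they were, in polysomes, 2 in MII against GV (19.4%), 2 in zygote M against zygote (14.6%), 2 in zygote against GV (17.7%), 4 in two-cell against GV (25.8%) and 7 in zygote M against MII (3 higher; 26.1%), then 2 in non-polysome MII against GV (26.6%), 1 between fractions in GV (877 of 7967 genes) and 0 in two-cell M (7.86%). This scaling moved the median of all genes in two-cell M against two-cell polysomes from -1.17 to 0.22, and Zar1 was then at -3.91 and Eif4e1b among the genes called lower. With only the libraries compared the counts were, in polysomes, 4 in MII against GV (27.1%), 6 in zygote M against zygote (33.1%), 2 in two-cell M against two-cell (20.9%), 2 in zygote against GV (31.0%), 5 in two-cell against GV (20.6%) and 7 in zygote M against MII (40.6%), then in the non-polysome fraction 2 in MII against GV (22.7%), 2 in two-cell M against two-cell (875 of 7967 genes) and 2 in two-cell against GV (12.4%), and between fractions 1 in two-cell embryos (6.89%) and 0 in two-cell M (0.238%). Without the two-cell M libraries, an alternative chosen after seeing the data, they were, in polysomes, 1 in MII against GV (13.2%), 2 in zygote M against zygote (11.3%), 2 in zygote against GV (12.3%), 3 in two-cell against GV (25.9%) and 5 in zygote M against MII (19.5%), then 3 in non-polysome MII against GV (26.0%), and between fractions 1 in GV (12.3%) and 5 in two-cell (26.1%). The cause was not tested.

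When each library was left out in turn, the counts ranged from 1 to 3 in polysome zygote M against MII, 0 to 2 in non-polysome MII against GV, 1 to 3 in non-polysome zygote M against zygote, 0 to 1 between fractions in GV and in zygote M, 1 to 4 in two-cell, 0 to 3 in two-cell M and 0 to 1 for the interaction at the two-cell stage. The shares of all genes in these fits are not given here, so these ranges cannot be set against the background. With a replicate block (the letter for comparisons between stages, and the stage and letter together for those between fractions and for the interactions), two-cell M against MII in polysomes had 6 genes called in place of 7 (52.6%), without Eif4enif1, and every other count was as without the block. Shares of all genes with the block ran from 0.0753% to 52.6% over 21 comparisons and interactions. For the stage effects they were 61.3% in polysomes and 76.5% outside them. The letters were not taken to pair the samples, since libraries of the same stage and letter in the 2 fractions had deviations correlated over 0.1 in only 6 of 18 pairs. Of the 18, 17 were above 0 (from -0.00625 to 0.167) and 12 correlated best with their own letter. The labels do not state that a letter marks 1 gradient. Counted by letter after the data were seen, the polysome level was the higher in all 3 GV letters for 7 of 9 genes (all but Cpeb1 and Dazl), beside 31.9% of all genes, and in the block fit 0 of these were called (adjusted p = 0.0853 for Zar1l, 0.161 for Patl2 and 0.399 for Eif4e1b).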
